A study of Mus musculus with 2 samples.

Results

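Aminoacyl-tRNA synthetases are the enzymes that attach each amino acid to its transfer RNA. The 36 genes described here, 20 for cytosolic and 16 for mitochondrial enzymes, were taken by name from the 43346 Ensembl gene rows of each gene table, and all 36 were found. Names were matched through the mouse GENCODE annotation, and the rule itself uses no measured level, though the genes and all lists below were chosen with earlier results of these data known. The data are total RNA-seq of MEL cells, a mouse erythroleukemia line known to turn on hemoglobin synthesis under dimethyl sulfoxide (DMSO). The series held 1 group of 2 libraries, replicate 2 and replicate 1, both from cells kept in 2% DMSO for 5 days, with fragments selected at 300 to 350 bases. In the labels each is a biological replicate, yet 1 biosample record is cited for the pair, and part of their difference may be technical. The line stands for 1 leukemia, untreated cells were not analysed here, and no value below is a response to DMSO.

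Estimated counts summed to 90856320 in replicate 2 and 65109488 in replicate 1. All 8 erythroid markers were at 1 TPM, the deposited abundance unit that corrects for transcript length, or more in both libraries, their TPM summed to 13666 in replicate 2 and 6544 in replicate 1, and 5 of them were higher in replicate 2 by the test given below. Of 12 markers of granulocytes and macrophages, lymphoid, mast, stromal and epithelial cells, 0 reached 1 TPM, their sums were 0.350 TPM in replicate 2 and 0.600 TPM in replicate 1, and Mcpt8 and Epcam had 0 counts. Of 3 megakaryocyte markers 2 were expressed, Pf4 at 24.7 TPM in replicate 2 and 34.1 TPM in replicate 1, and Itga2b at 19.1 and 11.1 TPM. The libraries differed in rRNA: genes of the rRNA locus on chromosome 17 took 2.70% of counts in replicate 2 and 7.40% in replicate 1. Protein-coding genes held 12.9% of summed TPM in replicate 2 and 13.5% in replicate 1, which makes 1 TPM a stricter cutoff than in a table of mRNA alone.

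Animal cells translate in the cytosol and, separately, in mitochondria, and most amino acids have a nuclear gene for each compartment, the mitochondrial one named with a closing 2. A few genes serve both compartments: Gars and Kars make glycyl- and lysyl-tRNA synthetase for the cytosol and for mitochondria. No mitochondrial glutaminyl-tRNA synthetase exists in mammals; glutamate is loaded first and then converted on the tRNA by the GatCAB amidotransferase. In the cytosol a set of the synthetases is bound with the scaffold proteins Aimp1, Aimp2 and Eef1e1 into the multisynthetase complex. Many cytosolic synthetase genes are known targets of the transcription factor ATF4, which is translated when amino acids are short or protein folding is disturbed.

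All 20 cytosolic synthetase genes were expressed at 1 TPM or more in both libraries, and 12 of the 16 mitochondrial ones were. Together this is 32 of 36, beside 37.3% of all 21474 annotated protein-coding genes. Median levels were 14.9 TPM in replicate 2 and 18.2 TPM in replicate 1 for the cytosolic genes, against 2.24 TPM in replicate 2 and 2.96 TPM in replicate 1 for the mitochondrial genes. The cytosolic median was 6.42 ± 0.377 times the mitochondrial median (SD, n = 2), with 6.69 in replicate 2 and 6.15 in replicate 1. The median over the 13628 protein-coding genes with any TPM was 1.69 in replicate 2 and 2.07 in replicate 1. All 20 cytosolic genes lay above it in both libraries, as did 9 of the 16 mitochondrial genes.

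The cytosolic class was narrow, from 4.83 to 25.8 TPM in replicate 2 and from 7.71 to 27.8 TPM in replicate 1. The highest by mean were Qars, Sars and Vars. Qars (chromosome 9, 108507706 to 108515941, GRCm38), for glutamine, had 25.7 TPM in replicate 2 and 23.4 TPM in replicate 1. Sars, for serine, had 25.8 and 23.0 TPM in the same order. Vars, for valine, had 22.7 TPM in replicate 2 and 26.0 TPM in replicate 1. These 3 and Kars stood at ranks 636 to 660 among protein-coding genes, with means that differed by less than the spread between libraries. The places of Qars and Vars rest on counting all transcripts. Protein-coding transcripts held 43.2% of Qars TPM in replicate 2 and 43.05% in replicate 1, and 38.6% and 40.2% of Vars TPM. In Sars and Kars they held 99.99% or more in each library. These shares were added after values were seen.

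The lowest cytosolic genes were Wars, Dars and Cars, for tryptophan, aspartate and cysteine. Wars (chromosome 12, 108860030 to 108894174) had 4.83 TPM in replicate 2 and 7.98 TPM in replicate 1, which placed it at rank 2801. Dars had 6.99 TPM in replicate 2 and 9.59 TPM in replicate 1. Cars had 9.86 TPM in replicate 2 and 7.71 TPM in replicate 1, so the order of the lowest genes was not the same in the 2 libraries: Wars was lowest in replicate 2 and Cars in replicate 1. Farsa and Farsb encode the alpha and beta chains of 1 enzyme, which charges phenylalanine as a tetramer with equal numbers of each. Farsa had 12.3 TPM in replicate 2 and 18.8 TPM in replicate 1, and Farsb had 7.60 TPM in replicate 2 and 10.3 TPM in replicate 1, so the alpha chain was higher in each library.

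The mitochondrial class was lower and more spread, and 1 gene stood apart from it. Lars2 (chromosome 9, 123366927 to 123462666), which encodes mitochondrial leucyl-tRNA synthetase, had 54.8 TPM in replicate 2 and 456 TPM in replicate 1. It ranked 273 among protein-coding genes in replicate 2 and 46 in replicate 1, above every cytosolic synthetase in both libraries. The part of rRNA reads in these Lars2 values, taken up below, was not tested. Next by mean after Lars2 was Tars2, for threonine, with 6.01 TPM in replicate 2 and 12.4 TPM in replicate 1. Vars2, for valine, followed by mean with 3.48 and 6.62 TPM in the same order. In replicate 2 alone Iars2, Rars2 and Cars2 lay above Vars2, at 4.41, 3.69 and 3.52 TPM. Tars2 was the 1 mitochondrial gene besides Lars2 with a mean above the lowest cytosolic mean, and 4 cytosolic genes lay below it. The lowest were Wars2, Mars2 and Ears2, for tryptophan, methionine and glutamate. Wars2 had 0.570 TPM in replicate 2 and 0.870 TPM in replicate 1. Mars2 had 0.590 TPM in replicate 2 and 0.940 TPM in replicate 1. Ears2 had 0.650 TPM in replicate 2 and 1.01 TPM in replicate 1. These 3 and Aars2, for alanine, with 0.720 TPM in replicate 2 and 1.52 TPM in replicate 1, are the members that missed 1 TPM in at least 1 library. They were detected with 648 or more counts in replicate 2 and 635 or more in replicate 1. Mars2 had 2627 counts in replicate 2 and 2519 in replicate 1 over a transcript of 11294 bases, and TPM divides by that length. For the other 9 mitochondrial genes the range was 1.18 to 4.41 TPM in replicate 2 and 1.62 to 5.75 TPM in replicate 1.

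**Figure D1:**
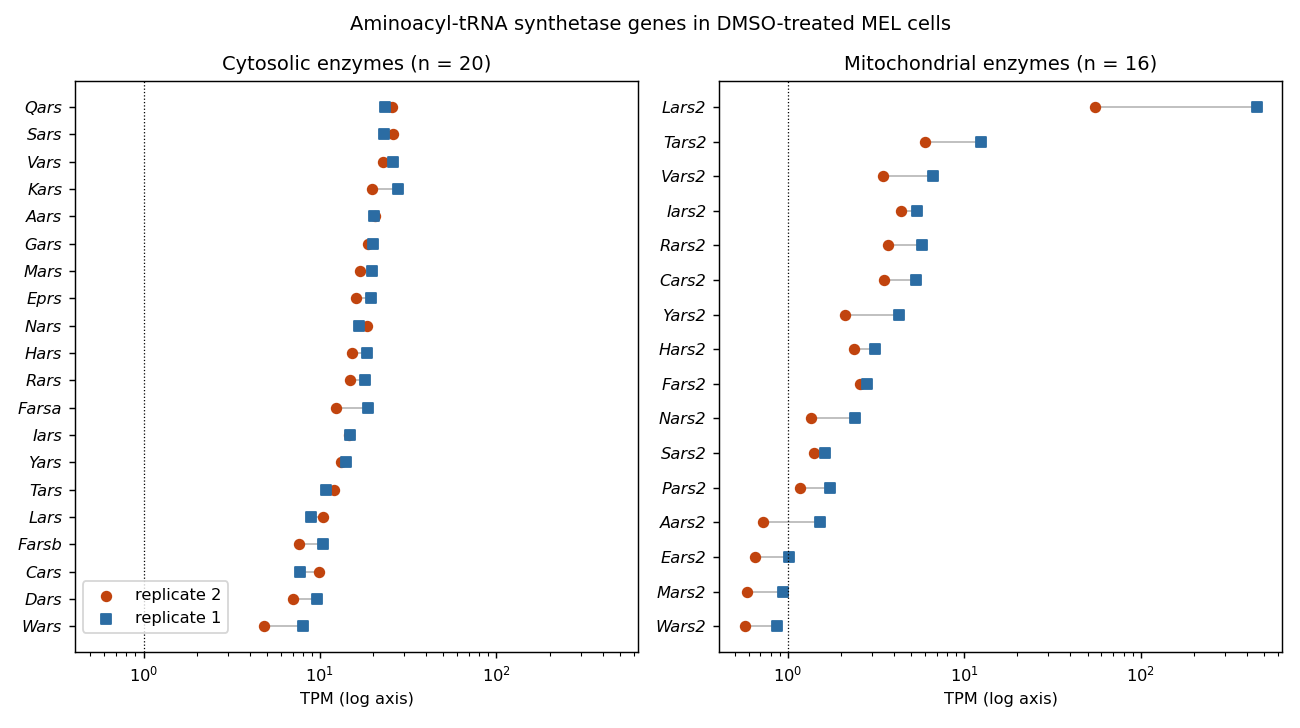
TPM on a log axis for each synthetase gene, cytosolic on the left and mitochondrial on the right, with a circle for replicate 2, a square for replicate 1 and a dotted line at 1 TPM. The 20 cytosolic genes lie between 4.83 and 27.8 TPM, and Lars2, at 54.8 TPM in replicate 2 and 456 TPM in replicate 1, lies far above the other 15 mitochondrial genes.

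The sum over a class depended on Lars2. Summed TPM was 306 for cytosolic genes and 89.5 for mitochondrial genes in replicate 2, and 336 for cytosolic genes and 511 for mitochondrial genes in replicate 1. The cytosolic sum was thus 3.42 times the mitochondrial sum in replicate 2 and 0.656 times it in replicate 1. Without Lars2 the mitochondrial sum was 34.6 TPM in replicate 2 and 55.8 TPM in replicate 1, and the cytosolic sum was 8.83 times it in replicate 2 and 6.02 times it in replicate 1. The ratio of class medians was less affected and was 6.79 ± 0.408 without Lars2 (SD, n = 2).

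Set against each other by amino acid, 17 pairs of a cytosolic and a mitochondrial gene could be formed, with Eprs, which charges both glutamate and proline, set against Ears2 and Pars2, and both phenylalanine chains against Fars2. The cytosolic gene was higher in both libraries in 15 of 17 pairs. The median pair ratio of cytosolic over mitochondrial TPM was 6.38 in replicate 2 and 5.90 in replicate 1. The ratio was largest for methionine, Mars over Mars2, at 28.02 in replicate 2 and 20.7 in replicate 1. Glutamate, Eprs over Ears2, followed with 24.2 in replicate 2 and 19.2 in replicate 1, and alanine, Aars over Aars2, with 27.99 in replicate 2 and 13.2 in replicate 1. Alanine ranked above glutamate in replicate 2 and below it in replicate 1. The place of methionine rests on counting all transcripts: with protein-coding transcripts only, an alternative chosen after the data were seen, Mars over Mars2 was 10.5 in replicate 2 and 9.82 in replicate 1. On that count glutamate was largest, at 28.3 in replicate 2 and 23.5 in replicate 1.

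The smallest ratios were for leucine, threonine and cysteine. Lars over Lars2 was 0.189 in replicate 2 and 0.0195 in replicate 1, the 1 pair with the mitochondrial gene higher in both libraries. That ratio carries the untested part of rRNA reads in Lars2. Tars over Tars2 was 1.99 in replicate 2 and 0.878 in replicate 1, on both sides of 1. Cars over Cars2 was 2.80 in replicate 2 and 1.44 in replicate 1. By the same count of protein-coding transcripts, Cars over Cars2 was 1.94 in replicate 2 and 0.985 in replicate 1, which left 14 pairs with the cytosolic gene higher in both libraries. In 14 of the 17 pairs the ratio was larger in replicate 2 than in replicate 1. The 3 exceptions were tryptophan and both phenylalanine chains.

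**Figure D2:**
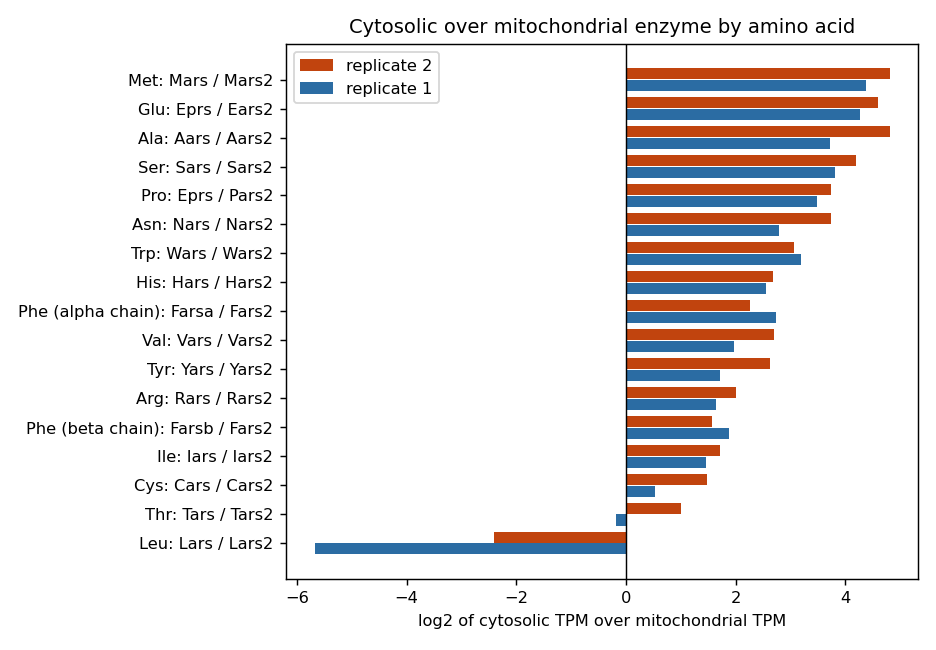
Log2 of cytosolic TPM over mitochondrial TPM for each amino acid, with the bar of replicate 2 above that of replicate 1, sorted by the mean. Methionine, glutamate and alanine have the longest bars to the right, and leucine alone lies left of 0 in both libraries, at -2.40 in replicate 2 and -5.68 in replicate 1.

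The genes that serve both compartments were at cytosolic levels. Gars (chromosome 6, 55038007 to 55079500) had 18.7 TPM in replicate 2 and 19.97 TPM in replicate 1, all in 1 listed transcript, so the share of each compartment's enzyme cannot be told apart. Kars (chromosome 8, 111993443 to 112011323) had 19.7 TPM in replicate 2 and 27.8 TPM in replicate 1 and has 3 listed transcripts. Kars-201, which encodes 595 residues, held 86.9% of the gene's TPM in replicate 2 and 84.0% in replicate 1. Kars-202 and Kars-203 each encode 624 residues, and the longer protein is the form that carries the signal for import into mitochondria. Kars-202 held 10.98% in replicate 2 and 13.2% in replicate 1, and Kars-203 held 2.17% in replicate 2 and 2.84% in replicate 1. In TPM, Kars-202 stood at 2.16 in replicate 2 and 3.67 in replicate 1, beside mitochondrial medians of 2.24 and 2.96, and Kars-203 at 0.430 in replicate 2 and 0.790 in replicate 1, below the lowest mitochondrial gene in each.

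For the 8 synthetases of the multisynthetase complex the median was 15.4 TPM in replicate 2 and 18.8 TPM in replicate 1, beside 14.1 TPM in replicate 2 and 17.5 TPM in replicate 1 for the 12 cytosolic genes outside it. Dars was its lowest member in replicate 2 and Lars in replicate 1, with Lars at 10.4 TPM in replicate 2 and 8.88 TPM in replicate 1. Its highest was Qars in replicate 2 and Kars in replicate 1. Eprs, the double enzyme, had 15.9 TPM in replicate 2 and 19.5 TPM in replicate 1, Mars 16.8 and 19.7 TPM, Rars, for arginine, 14.8 and 18.0 TPM, and Iars, for isoleucine, 14.6 and 14.9 TPM. The scaffold gene Aimp1 had 15.1 TPM in replicate 2 and 16.4 TPM in replicate 1, within the range of the enzymes. Aimp2 had 7.51 TPM in replicate 2 and 13.02 TPM in replicate 1, and Eef1e1 had 5.36 TPM in replicate 2 and 11.4 TPM in replicate 1.

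The mitochondrial helpers that stand in for missing synthetases or finish their products were low. The GatCAB subunit genes Gatb, Gatc and Qrsl1 had 1.01, 1.20 and 0.440 TPM in replicate 2 and 1.00, 1.61 and 1.08 TPM in replicate 1. Mtfmt, which formylates the initiator methionyl-tRNA of mitochondria, had 1.31 TPM in replicate 2 and 2.22 TPM in replicate 1. Among the 4 genes, 3 reached 1 TPM in both libraries, and all lay below the median of the mitochondrial synthetases. The factors that carry charged tRNA to the ribosome were higher in either compartment. Eef1a1, the cytosolic elongation factor, had 1606 TPM in replicate 2 and 1445 TPM in replicate 1, and Tufm, its mitochondrial counterpart, had 12.1 TPM in replicate 2 and 17.9 TPM in replicate 1. The Eef1a1 values are uncertain where the authors' assignment could split reads with its many near-identical pseudogenes.

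The 2 libraries were then compared gene by gene, with replicate 2 over replicate 1, by an exact two-sided binomial test on estimated counts scaled by TMM (trimmed mean of M values), Benjamini-Hochberg adjusted over 15272 genes. Called genes are those that differed 2-fold or more with an adjusted p under 0.05. Since both libraries come from 1 condition, the test compares libraries and not conditions, and it takes in counting error alone. In bulk RNA a lower share of a kind of cell and less of an RNA in each cell cannot be told apart. Of all genes tested, 992, or 6.5%, were called, 2.43% higher and 4.07% lower in replicate 2. Of the 36 synthetase genes 1 was called, Lars2, which was lower in replicate 2. At the adjusted p alone, which 62% of all genes passed, 12 synthetase genes were higher and 18 lower. With 1 of 36 called, the synthetase genes did not stand out from the 6.5% of all genes.

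Lars2 had 81725 counts in replicate 2 and 409566 counts in replicate 1, a log2 ratio of -2.77 (95% exact interval -2.79 to -2.76). The rRNA genes differed in the same direction. Gm42418 and Gm26917, annotated over the rRNA locus of chromosome 17, had log2 ratios of -2.54 and -1.30. The mitochondrial rRNA genes mt-Rnr1 and mt-Rnr2 had log2 ratios of -1.76 and -0.79. The 3′ UTR of mouse Lars2 is known to hold a stretch resembling large-subunit rRNA. The part of rRNA reads in the Lars2 values was not tested. The authors' posterior standard deviation of the count was 0 for Lars2 in both libraries, as for 34 of the 36 members. That value does not measure the part of rRNA reads.

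Of the genes that work beside the synthetases, the GatCAB subunit gene Qrsl1 was called, with a log2 ratio of -1.01 and an adjusted p of 6.18e-22 by the exact binomial test. It had 320 counts in replicate 2 and 473 in replicate 1. With no count filter its ratio was -0.98 and it was not called.

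Apart from Lars2, most mitochondrial genes had lower values in replicate 2 with TMM scaling and on the TPM scale, while the split of the cytosolic genes depended on the scaling and the count filter. The median log2 ratio was 0.10 for the 20 cytosolic genes and -0.30 for the 16 mitochondrial genes, or -0.27 without Lars2, beside a median of -0.0037 over all genes tested. Of the cytosolic genes 12 lay above 0 and 8 below (10 above with a count minimum of 100, 15 above with no filter), and of the mitochondrial genes 3 lay above 0 and 13 below. On the TPM scale the split was 7 above and 13 below for the cytosolic genes and 0 above and 16 below for the mitochondrial genes, while the median of expressed protein-coding genes was itself -0.26 on that log2 scale, so directions near 0 depend on the scaling. The cytosolic median exceeded the mitochondrial median by 0.40 with TMM scaling and by 0.27 on the log2 (TPM + 1) scale.

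The members farthest from 0 after Lars2 were also mitochondrial. Aars2 had a log2 ratio of -0.80 (95% exact interval -0.92 to -0.67), Tars2 of -0.78 (-0.83 to -0.72) and Yars2, for tyrosine, of -0.70 (-0.81 to -0.59). These 3 missed the 2-fold threshold and were past 1.5-fold. At the other end Cars, for cysteine, had 0.64 (0.58 to 0.70), Lars 0.50 (0.46 to 0.54) and Sars 0.49 (0.46 to 0.53). Cars was the 1 member above 1.5-fold in that direction. The lowest cytosolic ratios were those of Wars at -0.43 and Farsa at -0.36. Eprs, Rars, Mars, Hars and Vars were within 0.02 of 0 on the log2 scale, and their sign changed with the scaling or count filter used.

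**Figure D3:**
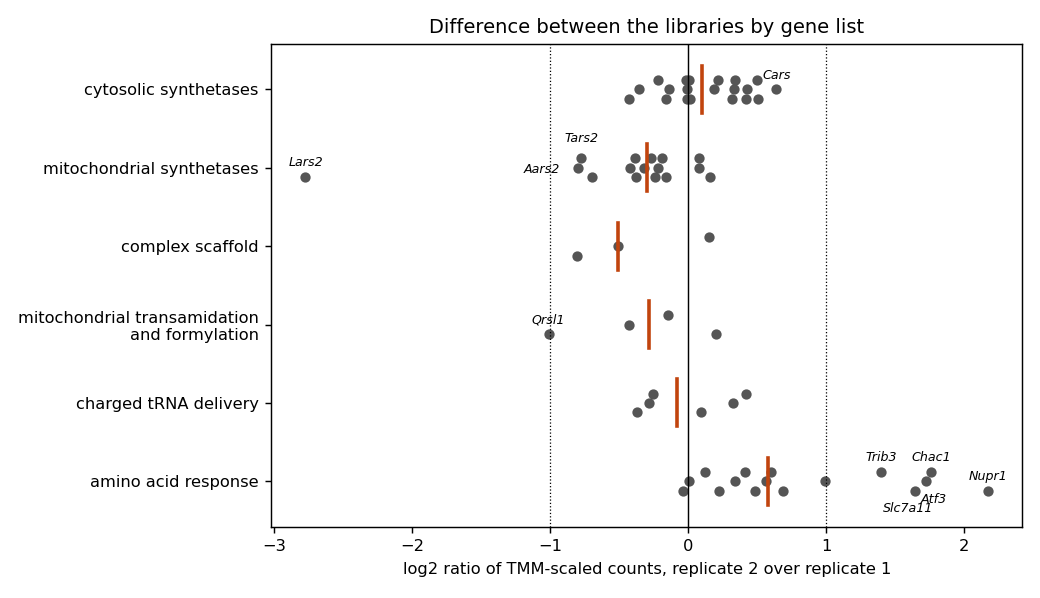
Log2 ratio of TMM-scaled counts, replicate 2 over replicate 1, for each gene of 6 lists, with the list median as an orange line and dotted lines at 2-fold. The cytosolic genes spread around a median of 0.10, the mitochondrial genes around -0.30 with Lars2 at -2.77, and the amino acid response genes around 0.58.

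Within the cytosolic class, genes known as ATF4 targets had a higher median log2 ratio than the rest, given as a description with no test, since the lists were chosen with results known. The 12 such synthetases had a median log2 ratio of 0.33, and 10 of them lay above 0. The 8 others had a median of -0.08, and 2 lay above 0. On the TPM scale 6 of the 12 and 1 of the 8 were higher in replicate 2. None of the 20 was called. The 2 known targets below 0 were Wars and Mars. Beside them, 16 genes of the amino acid response, the other known targets of ATF4 with Atf4 itself, had a median of 0.58. With TMM scaling 15 of 16 lay above 0. On the TPM scale 12 were higher and 4 lower in replicate 2, with Atf4 among the 4. Of the 16 genes, 5 were called higher in replicate 2, beside 2.43% of all genes. Nupr1, a stress-induced chromatin protein, had a log2 ratio of 2.17, with 853 counts in replicate 2 and 138 in replicate 1. Chac1, which degrades glutathione, had 1.76, the factor Atf3 1.73, the cystine transporter gene Slc7a11 1.65 and Trib3, a feedback inhibitor of the pathway, 1.40. Asns, asparagine synthetase, was the most abundant, with 95.5 TPM in replicate 2 and 71.7 TPM in replicate 1. Atf4 had 43.9 TPM in replicate 2 and 45.5 TPM in replicate 1. The erythroid markers also moved with replicate 2, with a median log2 ratio of 1.24 and 5 of 8 called higher, and their part in these differences was not tested.

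The promoters of the cytosolic genes were searched for the 8-base motif TGATGNAA, the sequence of the C/EBP-ATF response element that ATF4 binds with its partners, on both strands, in the 300 bases from 250 before to 50 after each start listed by RefSeq (GRCm38.p6). Promoters of 27 of the 36 members were searched. The motif was found in 5 of 13 cytosolic genes, Aars, Gars, Iars, Tars and Yars, and in 0 of 14 mitochondrial genes, against 4.51% of 27025 genes in all. It was also found in 6 of 15 amino acid response genes, Asns, Atf3, Chac1, Nupr1, Slc7a11 and Trib3. A match is a description of letters and not a shown binding site. The sites of Gars, Iars, Tars and Yars are printed, with those of Nupr1, Chac1 and Asns for comparison, to show the shared core. Each is 30 bases of the gene's own strand, 5′ to 3′, with the motif or its reverse complement in capitals.
Gars (chr6:55037960-55037989, plus strand): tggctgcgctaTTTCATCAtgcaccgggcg
Iars (chr13:49682126-49682155, plus strand): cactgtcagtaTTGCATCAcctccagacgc
Tars (chr15:11399655-11399684, minus strand): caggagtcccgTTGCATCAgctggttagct
Yars (chr4:129189895-129189924, plus strand): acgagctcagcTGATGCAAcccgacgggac
Nupr1 (chr7:126625562-126625591, minus strand): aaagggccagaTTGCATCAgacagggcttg
Chac1 (chr2:119351038-119351067, plus strand): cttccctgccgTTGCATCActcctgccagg
Asns (chr6:7693214-7693243, minus strand): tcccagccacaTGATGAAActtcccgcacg

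In Iars, Tars, Nupr1 and Chac1 the same 8 letters, TTGCATCA, appear, and Yars holds their reverse complement. The motif lay 30 bases before the RefSeq start in Gars and 15 in Tars, and began 7 bases after it in Iars and 3 in Yars. With TMM scaling the 5 cytosolic genes with the motif all lay above 0 in the comparison of the libraries. Their log2 ratios ran from 0.19 to 0.42, with a median of 0.31. The 8 cytosolic genes searched without a match ranged from -0.36 to 0.49 with a median of -0.08. Of those, 3 lay above 0, so the 2 sets overlapped. On the TPM scale Aars and Tars were higher in replicate 2, and Gars, Iars and Yars were lower. Among the genes without a match, Qars and Sars were higher on that scale and the rest lower. All 5 genes with the motif belong to the known targets, which are not an independent set, and no member of either set was called.

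The transcript tables showed which forms of each gene held its TPM. Of the 32 members expressed in both libraries, 8 had 1 listed transcript and 24 had several. In 22 of these 24 the same transcript led in both libraries, beside 92.9% of 6058 protein-coding genes with several transcripts. The exceptions were Mars and Hars2. In Mars the leading form was Mars-204, annotated as a retained intron, with 28.6% in replicate 2, and the protein-coding Mars-201 with 28.4% in replicate 1. In Hars2, for histidine, the protein-coding Hars2-201 led with 33.8% in replicate 2 and Hars2-206, also protein-coding, with 32.5% in replicate 1.

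Transcripts annotated as retaining an intron, which do not encode the full protein, held over 25% of the gene's TPM in both libraries in 5 members, beside 9.90% of 8003 expressed protein-coding genes. In Mars they held 63.0% in replicate 2 and 53.1% in replicate 1. In Vars they held 61.4% in replicate 2 and 59.8% in replicate 1, and in Vars2 37.5% in replicate 2 and 53.5% in replicate 1. Hars2 had 37.6% in replicate 2 and 38.1% in replicate 1, and Cars 30.1% and 29.2% in the same order. The median share over the expressed members was 0.785% in replicate 2 and 1.86% in replicate 1, beside a median of 0% in both libraries over expressed protein-coding genes. In Qars a transcript marked for nonsense-mediated decay, Qars-216, held 25.6% in replicate 2 and 19.98% in replicate 1. The TPM of short annotated transcripts rests on a small effective length, so these shares are not shares of reads. Libraries of total RNA also hold unspliced RNA, whose part in these shares was not tested.

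**Figure D4:**
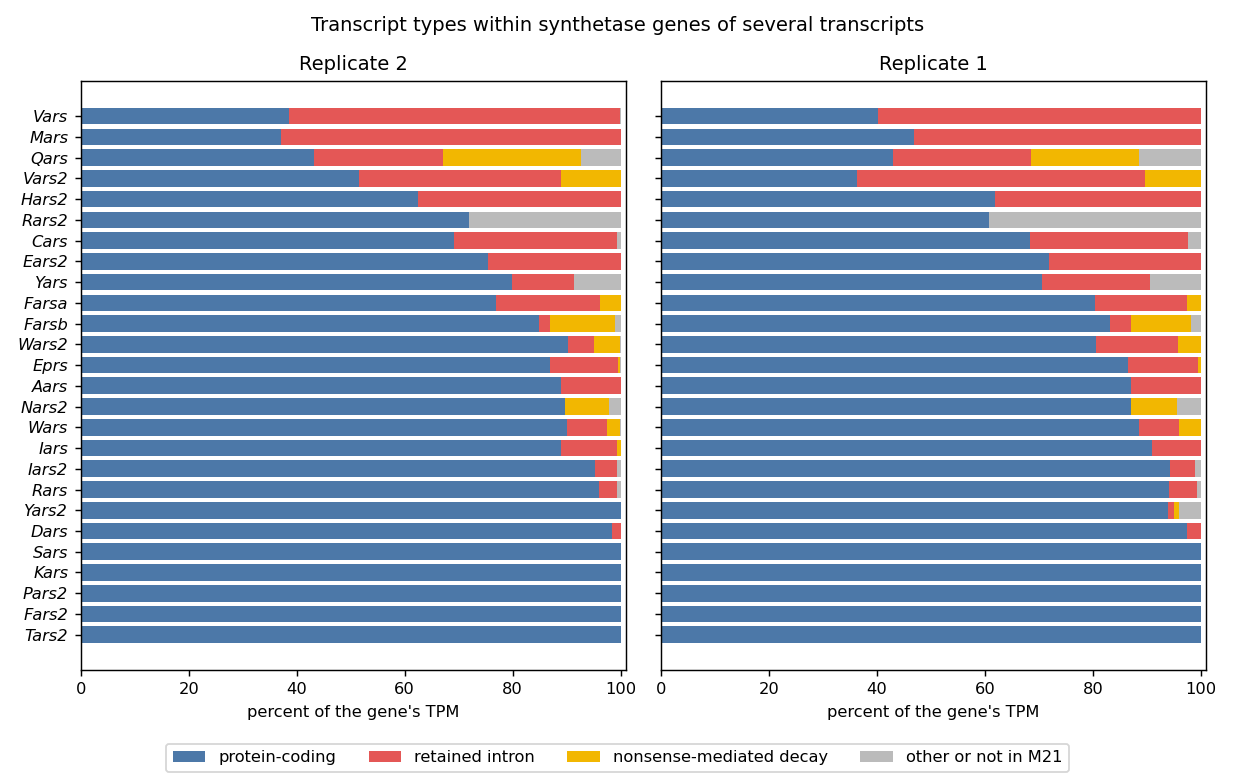
Percent of each gene's TPM held by transcripts of each annotated type in replicate 2 (left) and replicate 1 (right), for members with several listed transcripts. In replicate 2 Vars and Mars have the largest red part, with 61.4% and 63.0% in retained-intron transcripts. In replicate 1 Vars has 59.8%, Vars2 53.5% and Mars 53.1%. Kars, Sars and Tars2 have none in either library.

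Some members share exonic bases with a neighbouring gene, and whether counting used strand is not given in the sources used here, so their values are uncertain to that extent. In the annotation 13 members overlapped exons of another gene. Aars shares 1326 bases with Exosc6 on the same strand. On opposite strands, Iars2 shares 2034 bases with Rab3gap2, Fars2 shares 501 with Nrn1, Cars2 shares 422 with Naxd, and the divergent pair Hars and Hars2 share 195. Mars shares 68 bases with Ddit3, an amino acid response gene whose log2 ratio was 0.48, against -0.01 for Mars.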

How the data were processed

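The 2 libraries of 1 group are total RNA from MEL cells kept for 5 days in 2% DMSO. The readme deposited with each sample names mm10 and GENCODE M4 (aligner and quantifier: not given in the sources used here). The authors' gene tables hold, per the file headers, estimated counts, TPM, FPKM and posterior means and standard deviations. Per the file headers, the authors' transcript tables add each transcript's percent of the gene's TPM. Names, types and coordinates came from GENCODE M21 (GRCm38, 1-based), matched by identifier without version for 42462 of 43346 gene rows.

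Levels were compared between genes as TPM, as deposited, with the mean and SD of both libraries. Pair ratios used TPM plus 0.01. Estimated counts were rounded, scaled by TMM (edgeR 4.0.16, R 4.3.3) and tested per gene with an exact two-sided binomial test, with Benjamini-Hochberg adjustment, for the 15272 genes that had at least 10 counts in either library. Log2 ratios used 0.5 added to counts, and 95% intervals are Clopper-Pearson; both cover counting error only. The procedure was tested on simulated counts that held counting error alone. Such counts cannot show how reliable calls are between libraries that differ by more than counting error. The libraries' counts differed by a chi-square of 386 per degree of freedom, so they were kept as 2 samples.

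The members and all lists were chosen with earlier results of these data known. Given in full are the 3 highest and 3 lowest genes of each class, called members, the 3 largest and 3 smallest pair ratios, Gars, Kars, Eprs and complex members; of other lists at most the 3 highest, the 2 lowest and any called. Genes named as farthest from or nearest to 0, those with over 25% retained-intron share, Farsa, Farsb, Aars2 and Qars-216 were added after values were seen. Alternatives were other thresholds, units, pseudocounts and filters, DESeq2 1.42.0 size factors, total counts and each library left out. Promoter sequences are from RefSeq (GRCm38.p6), without those of chromosome 18. A promoter site and a marker gene are not reported here singly, though both count in their lists.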

Additional observations from a re-analysis of the deposited data

How the results depend on the processing

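No paired analysis was possible because the series holds 1 group, and leaving out a library leaves no value for the comparison of libraries. The mitochondrial genes expressed in both libraries numbered 2 at 5 TPM instead of 12 at 1 TPM. The cytosolic over mitochondrial median of 6.42 became 1.63 with class means, which average 2.73 in replicate 2 and 0.525 in replicate 1 and are 5.57 without Lars2, and 4.37 with members at 1 TPM or more only. It ranged from 6.15 to 6.69 with each library left out. The median log2 pair ratio of 2.62 became 2.21 with a pseudocount of 1, 2.33 with estimated counts and 2.42 with protein-coding transcripts only, the last chosen after the data were seen, and ranged from 2.56 to 2.67 with each library left out. The cytosolic side stayed higher in these, except by class means in replicate 1.

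At 1.5-fold the members called numbered 5, with 1 higher and 4 lower, and at the adjusted p alone 30, with 12 higher and 18 lower. All genes called numbered 395 with a count minimum of 100, 613 among protein-coding genes only, 2463 at 1.5-fold and 9466 at the adjusted p alone. Of the 16 amino acid response genes, 8 were higher in replicate 2 at 1.5-fold and 14 at the adjusted p alone. The adjusted p alone was passed by 62% of all genes in either direction. Lars2 was called under every scaling and filter run, with log2 ratios from -2.74 to -2.81. Qrsl1, lower in replicate 2 at -1.01, missed 2-fold with no count filter at -0.98, and Sesn2 passed it there at 1.02.

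Log2 ratios near 0 changed sign. Eprs became -0.029 with total counts, -0.018 with a count minimum of 100 and -0.017 among protein-coding genes only. Rars became -0.016, -0.0045 and -0.0039, and Phgdh -0.025, -0.014 and -0.013, under the same 3 settings. With no count filter Hars became 0.019, Mars 0.019 and Vars 0.011. On the log2 (TPM + 1) scale, where the median of all genes was -0.10, the cytosolic class median was -0.14, the mitochondrial one -0.41 and their difference 0.27. Under the other scalings, filters and pseudocounts, and without Lars2, these medians moved by less than 0.0494, the median 95% counting error of a member. The cause of these changes was not tested.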

Other observations

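A list of 5 genes of tRNA proofreading and related enzymes was expressed beside the synthetases. Aarsd1, which hydrolyses serine wrongly attached to alanine tRNA, had 9.97 TPM in replicate 2 and 15.8 TPM in replicate 1. Dtd1, which removes D-amino acids from tRNA, and its relative Dtd2 had 2.94 and 2.41 TPM in replicate 2 and 4.82 and 2.63 TPM in replicate 1. All 5 genes of this list reached 1 TPM in both libraries, beside 37.3% of annotated protein-coding genes. By the exact binomial test 0 were called between the libraries, beside 6.5% of all genes. At the adjusted p alone, which 62% of all genes passed, 2 were higher and 3 lower in replicate 2. Tarsl2, also on this list, is a second threonyl-tRNA synthetase gene of the cytosol and not among the 36 members. It had 2.95 TPM in replicate 2 and 2.69 TPM in replicate 1, below Tars in both.

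Synthetases fall into 2 unrelated structural classes that sit on opposite sides of the tRNA. The 18 class I genes had a median log2 ratio of -0.11 between the libraries, replicate 2 over replicate 1, and the 17 class II genes of -0.14, a smaller gap than the one between cytosolic and mitochondrial genes. Their median levels were 7.34 TPM for class I and 7.60 TPM for class II in replicate 2, and 7.84 TPM for class I and 10.9 TPM for class II in replicate 1. Eprs holds a domain of each class and was counted in neither.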
